A study of Saccharomyces cerevisiae W303 with 4 samples.

Results

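Nuclear tRNA genes are the places on the 16 nuclear chromosomes of yeast from which transfer RNAs are made, and they are examined here as possible sites of Zuo1 in chromatin. All genes with the biotype tRNA in the R64 annotation of Saccharomyces cerevisiae were taken, and the 24 mitochondrial ones were left out, which gave 275 of 6431 nuclear genes and pseudogenes. Each gene was scored against the deposited list of Zuo1 peaks by 1 bp or more of overlap, by the distance from the peak summit and by the fold enrichment. The study precipitated chromatin of asynchronous, formaldehyde-crosslinked MATa cells of the RAD5+ W303 background with an antibody against Myc. All libraries came from 1 strain, in which Zuo1 carries 13 Myc epitopes at its C terminus at the endogenous locus with a TRP marker. The IP group holds 2 libraries and the input group 2 libraries of sheared chromatin from the same strain, and an untagged strain was not analysed here. The authors called peaks on all libraries together, so the list gives 1 pooled value per peak and no spread between cultures. Genes are not replicates of the experiment, and the differences between groups of genes below are descriptions without a test.

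Zuo1 is a J-protein of the ribosome-associated complex and also occurs in the nucleus. RNA polymerase III transcribes tRNA genes from a promoter that lies inside the gene. TFIIIC binds the internal A box and B box and places TFIIIB just upstream of the start, where the retrotransposons Ty1 to Ty4 also prefer to insert, so that long terminal repeats (LTRs) of old insertions often flank tRNA genes. A pre-tRNA with an intron is spliced after transcription, and the mature tRNA is charged with 1 amino acid according to its anticodon, given here in DNA letters.

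The genes that the results turn on are shown in the direction of transcription, from the R64 genome of RefSeq. Capitals mark the core of the B box (GNTCNANNC).
SUF2: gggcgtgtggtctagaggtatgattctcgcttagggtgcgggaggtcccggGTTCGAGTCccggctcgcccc
YNCE0004C: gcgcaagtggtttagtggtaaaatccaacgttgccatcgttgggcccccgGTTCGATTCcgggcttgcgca
YNCK0016W: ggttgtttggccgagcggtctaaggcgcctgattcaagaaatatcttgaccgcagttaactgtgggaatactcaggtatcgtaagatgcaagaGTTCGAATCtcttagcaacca
IMT1: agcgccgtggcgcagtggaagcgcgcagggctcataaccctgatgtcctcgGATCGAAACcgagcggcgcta
EMT1: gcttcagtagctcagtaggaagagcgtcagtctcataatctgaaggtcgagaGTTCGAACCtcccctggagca
SUF2 is a proline gene with the strongest peak that was centred on a tRNA gene and held no other gene (chrIII:123577-123648, minus strand). YNCE0004C stands for the largest family, 16 glycine genes with the same sequence (chrV:61890-61960, minus strand). YNCK0016W is a leucine gene with an intron (chrXI:458557-458670, plus strand), from the amino acid with the most genes that were all under peaks. IMT1 is an initiator methionine gene (chrXV:710201-710272, plus strand), and EMT1 is an elongator methionine gene (chrIV:1175829-1175901, plus strand). The stricter core GTTCNANNC was found on the coding strand of 270 of the 275 genes, and the 5 genes without it share the IMT1 sequence. On either strand it occurred in 2.73% of 73-bp tiles of the nuclear chromosomes, 73 bp being the median length of a tRNA gene (range 71 to 133 bp).

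The list holds 1594 peaks, 1543 of them nuclear. The median fold enrichment, which is the IP fragments at the summit over those of the local background, was 2.39 over the 202 peaks at tRNA genes and 2.44 over the other 1341 nuclear peaks. The number of fragments behind each summit was worked back from the deposited fold and p-value. The median was 92.5 IP fragments over a background of 38.2 for peaks at tRNA genes, and 92 IP fragments over 36.3 for the other nuclear peaks. The 95% Poisson intervals on the IP fragments cover counting error only, and at a typical tRNA gene they ran from 81.0% to 122.1% of the fold.

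Most nuclear tRNA genes lay under a Zuo1 peak. A peak overlapped 208 of the 275 genes (75.6%), against 1155 of the 6156 other nuclear genes (18.8%). Short genes meet fewer peaks than long genes by size alone. Tiles of 73 bp, the length of a tRNA gene, were overlapped in 9.31% of cases over the nuclear chromosomes. The middle base was under a peak in 74.5% of the tRNA genes and in 10.1% of the other nuclear genes. By class, it was under a peak in 9.15% of 6002 protein-coding genes and in 53.9% of 76 snoRNA genes, which encode guides for RNA modification. Of these 3 classes the tRNA genes had the highest share over all peaks, but not over peaks of 3-fold or more, where the snoRNA genes did.

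Most peaks over tRNA genes had their summit on or close to the gene. Of the 208 genes, 202 lay wholly inside the peak. The peak summit was within 150 bp of the middle of the gene in 178 (85.6%) and inside the gene in 88. Signed by the direction of transcription, the distance from the middle to the summit had a median of -19.5 bp, with quartiles at -66.5 and 35.1 bp and a range of -1400.5 to 1790 bp. The median summit was thus on the upstream side, 20.5 bp after the first base of the gene. At the middle of the gene 74.5% of the genes were under a peak. Upstream this was 34.2% at 250 bp and 16% at 500 bp, and downstream it was 15.3% at 250 bp and 5.09% at 500 bp. The share of all nuclear bases under peaks was 8.39%, so the cover reached farther on the upstream side.

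**Figure D1:**
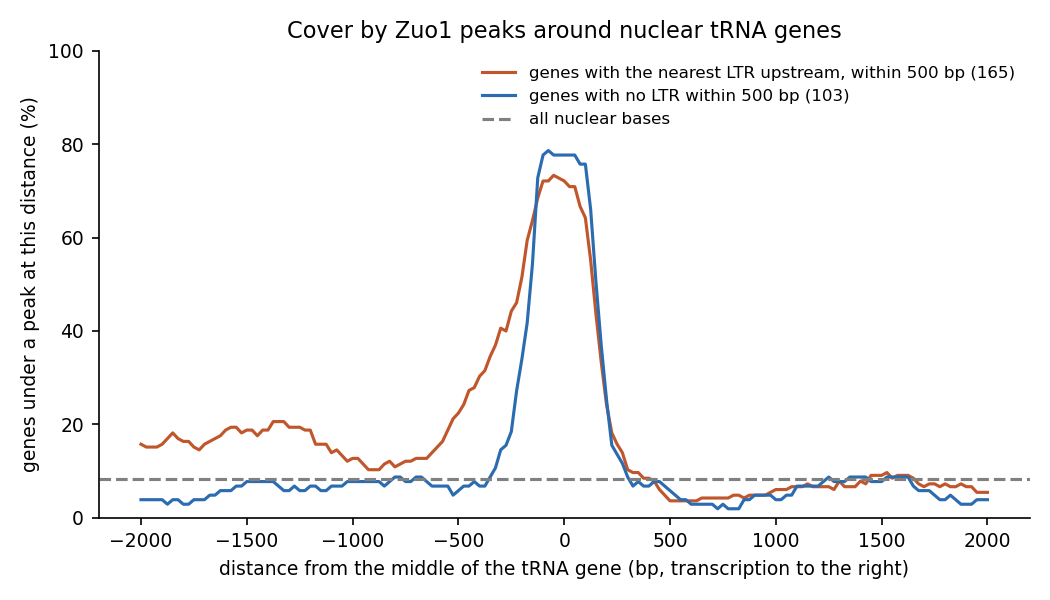
Percentage of tRNA genes under a peak (y axis) at each distance in bp from the middle of the gene (x axis, transcription to the right). Genes with the nearest LTR upstream within 500 bp (165 genes, orange) and genes with no LTR within 500 bp (103 genes, blue) reach 72.1% and 77.7% at the middle, and the dashed line is the 8.39% of all nuclear bases; the upstream shoulder belongs to the orange line.

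Enrichment was moderate at most tRNA genes, and not all of its spread lay within counting error. The fold over the 208 genes had quartiles of 2.10 and 2.72 around a median of 2.40, with a lowest value of 1.58 and a highest of 7.09. The Poisson interval of 147 of these genes (70.7%) held that median, whereas 33 lay wholly above it and 28 wholly below. A fold of 3 or more was reached by 24 of the 202 peaks at tRNA genes (11.9%), against 439 of the 1341 other nuclear peaks (32.7%). Counted by gene, 25 tRNA genes (9.09%) were under a peak of 3-fold or more, against 7.88% of the other nuclear genes. By the middle base, 3-fold was reached at 9.09% of the tRNA genes, 4.32% of the protein-coding genes and 22.4% of the snoRNA genes. Median peak lengths were similar, with 414 bp at tRNA genes and 434 bp elsewhere, but the upper quartiles were 591.5 and 726 bp.

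**Figure D2:**
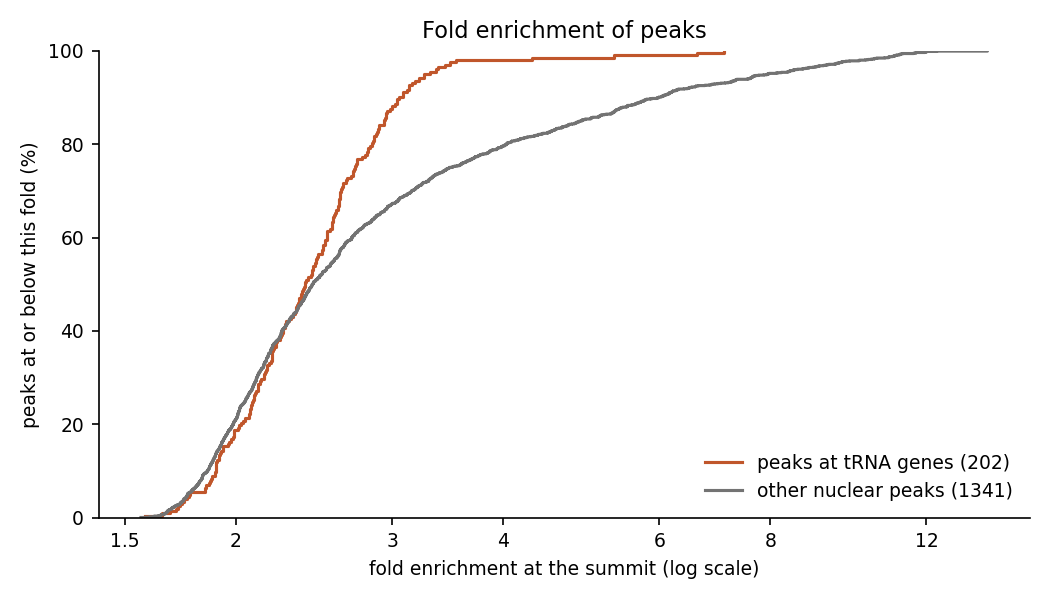
Cumulative percentage of peaks (y axis) at or below each fold enrichment (x axis, log scale) for the 202 peaks at tRNA genes (orange) and the 1341 other nuclear peaks (grey). The medians, 2.39 and 2.44, are close, and the grey line has the longer upper tail, up to 14.06 against 7.09 at tRNA genes.

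Of the strongest peaks over tRNA genes, several also covered other genes. The highest fold, 7.09 (95% interval 6.24 to 8.01, 253 IP fragments), was at TRN1, a proline gene on chromosome I. This peak was 1964 bp long, and its summit lay 397 bp downstream of the middle of TRN1, inside SSA1, which encodes an Hsp70 chaperone. YNCE0005W, a serine gene, had 5.34 (4.66 to 6.09), in a peak that also covered UTR5, HYP2 and MTC7 and had its summit in MTC7. YNCL0040W, an aspartate gene, had 4.31 (3.71 to 4.97) under a peak shared with the snoRNA genes SNR61, SNR55 and SNR57, and the summit was 688.5 bp downstream. At these 3 genes the fold is that of a region and cannot be assigned to the tRNA gene.

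SUF2, known from mutations that suppress frameshifts, was different. Its fold was 6.62 (5.85 to 7.46, 266 IP fragments over 39.34), the peak of 427 bp held no other gene, and the summit lay 9.5 bp upstream of the middle. The only other gene with this sequence, SUF10 on chromosome XIV, had a fold of 2.58 (2.10 to 3.12, 102 IP fragments over 38.99), with its summit at the same place in the gene. The intervals of these identical copies did not overlap. The 50 bases just upstream have 5 positions in common when set side by side without gaps. Other bases around the 2 genes were not compared, and whether any differing base bears on the fold was not tested.
SUF2 upstream: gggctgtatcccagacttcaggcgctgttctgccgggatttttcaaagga
SUF10 upstream: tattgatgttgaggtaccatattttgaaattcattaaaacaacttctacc
Those of SUF2 lie at chrIII:123649-123698 and those of SUF10 at chrXIV:631918-631967, both on the minus strand. The nearest LTR was 485 bp upstream of SUF2 and 80 bp upstream of SUF10.

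The rest of the 10 highest folds fell from 3.54 to 3.36. They were the valine gene YNCH0016C with 3.54, the arginine and aspartate pair YNCB0015W and YNCB0016W under 1 peak with 3.49, the leucine genes YNCK0016W with 3.44 and YNCL0032C with 3.38, and the phenylalanine gene YNCB0002W with 3.36. Their intervals all overlapped. The peak over YNCK0016W was 870 bp long and also held the coding gene TOF2. Its summit lay 67.5 bp downstream of the middle, outside the tRNA gene. At the other end, the lowest fold was 1.58 (1.21 to 2.02, 61 IP fragments over 38.29) at the glycine gene YNCO0004C. The next lowest were the leucine gene YNCN0020C with 1.65, the arginine gene YNCJ0008W with 1.68, the valine gene YNCM0029C with 1.71 and the leucine gene SUP56 with 1.72. For YNCN0020C the summit was at -198.5 bp from the middle of the gene, in an LTR. Among the 134 genes whose peak held no other gene and had its summit within 150 bp, the fold ranged from 1.58 to 6.62 with a median of 2.38.

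The summit lay more than 150 bp from the middle of the gene in 30 of the 208 cases. In 14 of these it was in an LTR, in 6 in a coding gene, in 1 inside a Ty element outside its LTRs, in 1 in another tRNA gene and in 8 in none of these. Coding genes that held such summits were SSA1, MTC7, GCN4, which encodes the activator of amino acid synthesis, and open reading frames of Ty elements. Peaks that held a coding gene had a median fold of 2.44 at 47 tRNA genes, and peaks without one had 2.39 at 161.

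**Figure D3:**
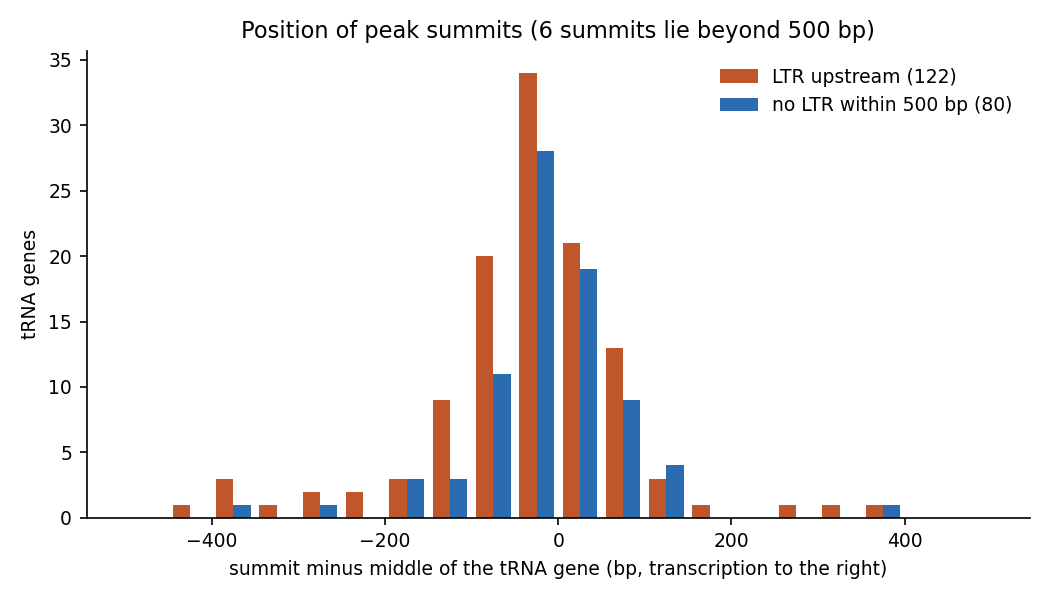
Number of tRNA genes (y axis) by the distance in bp from the middle of the gene to the peak summit (x axis, bins of 50 bp, transcription to the right), for 122 genes with an upstream LTR (orange) and 80 genes with no LTR within 500 bp (blue). Both sets centre near the gene, with medians of -26.5 and -13.75 bp, and 6 summits lie beyond the axis.

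Every amino acid had genes under peaks. All 21 leucine genes were under a peak, over 4 anticodons: 10 of 10 with CAA, 7 of 7 with TAA, 3 of 3 with TAG and 1 of 1 with GAG. All 8 tyrosine genes were also under a peak. The share over all nuclear tRNA genes was 75.6%. The next highest shares were those of asparagine (9 of 10), aspartate (14 of 16), arginine (16 of 19), alanine (13 of 16, 81.2%) and phenylalanine (8 of 10, 80%). Those of alanine and phenylalanine were near the share over all tRNA genes. The lowest shares were those of glutamine (5 of 10), tryptophan (3 of 6), valine (11 of 18), glycine (14 of 21) and proline (8 of 12). Leucine and serine tRNAs share a long variable arm, and 34 of their 38 genes together were under peaks. For serine alone it was 13 of 17 (76.5%), close to the share over all tRNA genes, so the high joint share came from leucine. Whether repeated sequence around the genes has a part in this order of shares was not tested. Median folds over the 20 amino acids ran from 1.99 for cysteine to 2.64 for leucine.

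**Figure D4:**
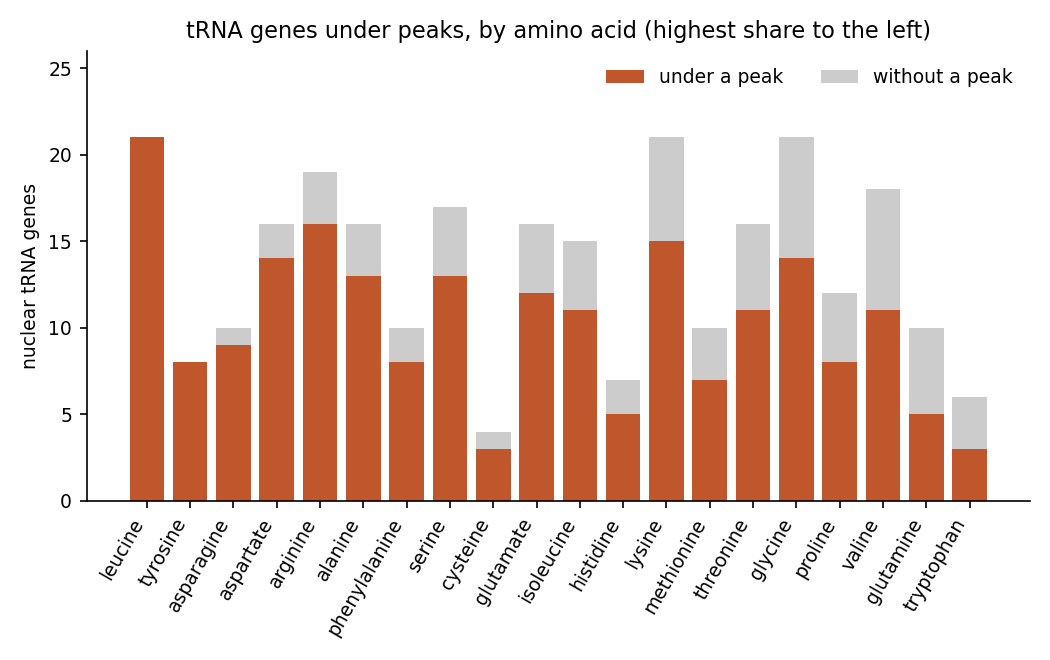
Number of nuclear tRNA genes (y axis) under a peak (orange) and without one (grey), by amino acid (x axis, ordered by the share under a peak). Leucine (21 of 21) and tyrosine (8 of 8) have no grey part, and glutamine (5 of 10) and tryptophan (3 of 6), at the right, have the lowest shares under a peak; the 2 genes of undetermined amino acid are left out.

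The 8 tyrosine genes with the anticodon GTA are known as nonsense suppressors when mutated in the anticodon. Their folds were 2.74 at SUP6, 2.61 at SUP11, 2.61 at SUP4, 2.47 at SUP2, 2.39 at SUP3, 2.36 at SUP7, 2.34 at SUP8 and 2.26 at SUP5. All 8 had the overall median of 2.40 inside their intervals, and none of the 28 pairs had separate intervals. The summits lay within 102 bp of the middle of the gene except at SUP8, where it was at -245 bp, in an LTR.

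The methionine genes fall in 2 families. Elongator methionine tRNA inserts methionine within proteins, and all 5 of its genes were under peaks. Their folds were 3.04 at EMT5, 2.77 at EMT1, 2.60 at EMT3, 2.30 at EMT2 and 2.10 at EMT4. For EMT2 the summit was at -364 bp from the middle of the gene, in an LTR, and the peak also held YOR343W-B. Initiator methionine tRNA starts translation, and IMT2 and IMT1 were under peaks with folds of 3.19 and 2.38. IMT3 and IMT4 had no peak and lay 3047 and 13314 bp from the nearest one. YNCC0008W is annotated only as methionine but has the mature sequence of the initiator genes, and it also had no peak, with the nearest 6978 bp away. The initiator sequence was therefore under a peak in 2 of 5 copies, and these are the 5 genes without GTTCNANNC. In the other 270 genes the share was 206 (76.3%).

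A few genes carry the only copy of their anticodon in the nuclear genome, and cells depend on SUP61, TRT2, TRR4 and CDC65. SUP61 (serine, CGA) had a fold of 2.67 (2.18 to 3.23), TRT2 (threonine, CGT) 2.70 (2.22 to 3.25) and TRR4 (arginine, CCG) 2.22 (1.79 to 2.72), each with the summit within 55.5 bp of the middle. CDC65, the gene of the glutamine tRNA with the anticodon CTG, had no peak, and the nearest was 5451 bp away. YNCC0014W, the threonine gene beside the silent mating locus HMR, which is known as a boundary of silent chromatin, had 2.63 (2.14 to 3.21).

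Copies with the same sequence differed in whether a peak was present. The 275 genes formed 35 families of 2 or more copies with the same mature tRNA (254 genes) and 21 genes without an identical copy. In 26 families some copies were under a peak and others were not, and in 9 all copies were under a peak. In no family were all copies without one. Among the 628 pairs of identical copies under peaks, 68 (10.8%) had separate Poisson intervals. For pairs of different sequence it was 13.4%.

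The largest family shows this for glycine. Of the 16 copies with the anticodon GCC and the sequence printed for YNCE0004C, 10 were under peaks. Their folds were 2.80 at YNCE0004C, 2.39 at YNCP0009W, 2.32 at YNCG0043C, 2.26 at YNCB0005C, 2.03 at SUF16, 1.97 at YNCF0008C, 1.96 at YNCD0020W, 1.85 at YNCG0039W, 1.77 at SUF17 and 1.58 at YNCO0004C. The summit of the strongest, at YNCE0004C, was 612 bp away, in a peak that also held the snoRNA genes SNR67 and SNR53. This peak overlapped YNCE0004C by 16 bp only. The summits for YNCB0005C, at -274 bp, and SUF16, at -171 bp, lay in LTRs, and YNCB0005C shared its peak with YNCB0004W. The copies without a peak were SUF20, SUF23, YNCD0001W, YNCJ0017C, YNCM0007C and YNCP0023W, from 58 to 19764 bp from the nearest peak. Only 2 of the 45 pairs of copies under peaks had separate intervals. In the aspartate family with the anticodon GTC, 14 of 15 copies were under peaks. In the lysine family with CTT it was 9 of 14, in the valine family with AAC 7 of 13 and in the arginine family with TCT 10 of 11.

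**Figure D5:**
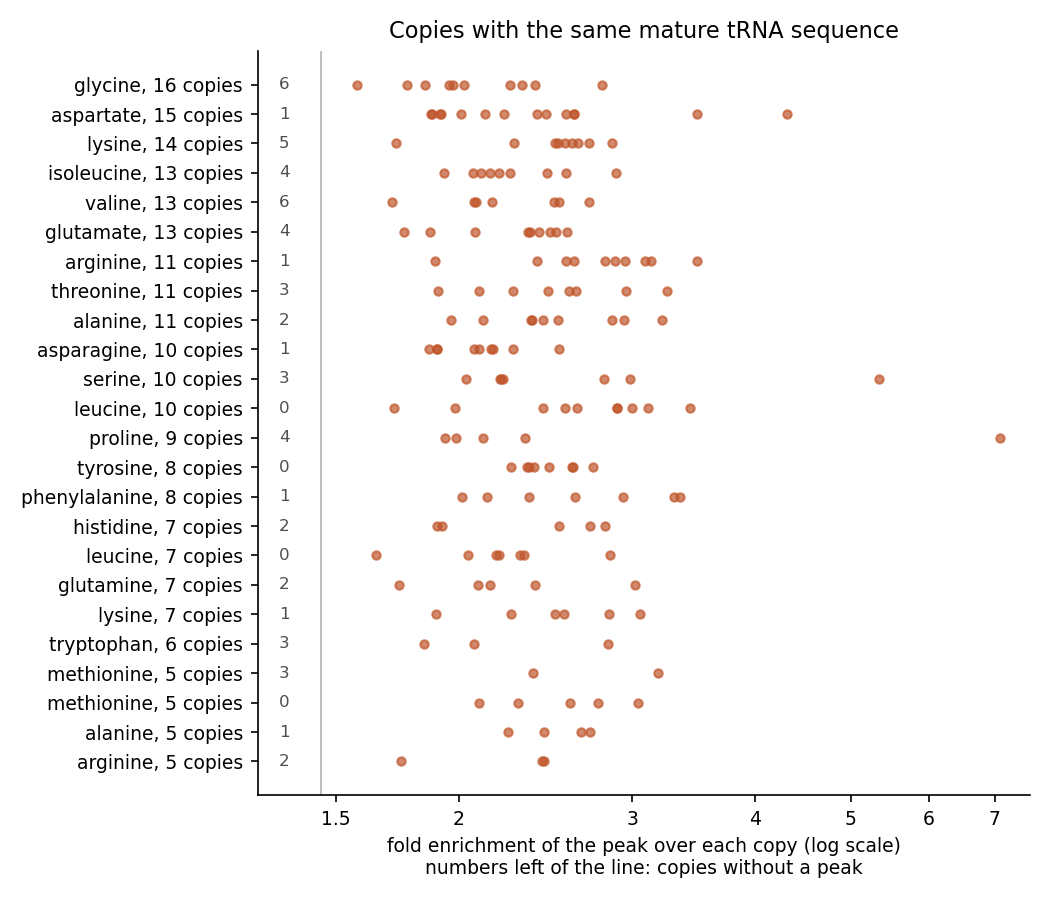
Fold enrichment (x axis, log scale) of the peak over each copy, for the 24 families with 5 or more copies of the same mature sequence (y axis, 1 row per family, 1 point per copy). The numbers at the left count copies without a peak, from 6 in the glycine and valine families to 0 in the leucine, tyrosine and elongator methionine families, and most points lie between 1.58 and 3.49.

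A read that falls inside a repeated sequence cannot be placed with certainty, and the deposited list does not show how such reads were treated. The share of 64-base words, the length of a read, that occur once in the genome was therefore counted in a window around every gene. The window held the gene and the 300 bp on each side, so repeated words in the gene itself also lower the share. For YNCK0016W the share was 65.1%. Of genes with under 80% unique words 42 of 47 were under a peak (89.4%), of those with 80 to 95% it was 62 of 79 (78.5%) and of those with 95% or more it was 104 of 149 (69.8%). The share under peaks was thus higher where this window was more repeated, and the part of this in the results was not tested. Of 21 genes without an identical copy, 15 were under a peak (71.4%). Median folds in the 3 classes were 2.38, 2.42 and 2.39. By amino acid, the median share of unique words was 91.5% for leucine and 92.4% for tyrosine, whose genes were all under peaks. At the low end it was 95.7% for glutamine, 96.65% for valine, 96.5% for glycine and 95.85% for proline, but 90.6% for tryptophan. Asparagine (95.05%) and aspartate (96.4%), with high shares under peaks, also went the other way. The part of repeated words in the order of amino acids was not tested.

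In 4 places a TCT arginine gene and a GTC aspartate gene lie 10 bp apart, and all 8 genes were under peaks, 1 peak per pair. The unit on chromosome II (chrII:405878-406031, plus strand) is shown with its spacer in capitals, because 1 peak covers both genes.
YNCB0015W-YNCB0016W: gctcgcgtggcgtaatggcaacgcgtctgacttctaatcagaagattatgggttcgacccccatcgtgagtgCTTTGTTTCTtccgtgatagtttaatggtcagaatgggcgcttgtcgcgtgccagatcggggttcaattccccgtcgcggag
Its fold was 3.49 (2.94 to 4.11). YNCJ0011W and YNCJ0012W had 2.62, YNCJ0014C and YNCJ0013C 2.57, and YNCD0011W and YNCD0012W 2.40. In every pair the summit lay downstream of the middle of the arginine gene and upstream of the middle of the aspartate gene. More widely, all 12 genes with another tRNA gene within 500 bp were under a peak, against 196 of the other 263 (74.5%). The 12 genes shared 6 peaks, so each of these peaks was counted for more than 1 gene. The summit of the peak over YNCB0004W and YNCB0005C lay in an LTR. The windows around these 12 genes, with the genes included, were also more repeated, with a median of 79.7% unique words against 96.1%.

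An intron went with a slightly higher share and fold. Of the 60 genes with an intron, of 14 to 60 bp, 48 were under a peak (80.0%), against 160 of the 215 genes without one (74.4%). Their median folds were 2.61 and 2.37, and 3-fold was reached by 8 and 17 genes. The leucine CAA and tyrosine genes supply 18 of the intron genes under peaks. In the window that includes the gene, genes with an intron had a median of 91.7% unique words and genes without one 96.2%. Among genes with 95% or more unique words, 11 of 15 with an intron (73.3%) and 93 of 134 without one (69.4%) were under a peak, with median folds of 2.39 and 2.39. Among genes with fewer unique words the shares were 82.2% with an intron (37 of 45) and 82.7% without one (67 of 81), with median folds of 2.61 and 2.32. The median fold was thus higher with an intron in the second of these sets, and the share in the first, and neither difference was tested.

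A neighbouring LTR did not go with a higher share. An LTR within 500 bp was annotated at 172 genes, the nearest being upstream at 165. These positions are those of the reference strain, and insertions in the W303 strain can differ. Of the 172 genes 128 were under a peak (74.4%), against 80 of the 103 genes without an LTR (77.7%), with median folds of 2.37 and 2.49. With a limit of 250 bp the order turned, with 76.4% against 74.8%. A fold of 3 or more was found at 10 genes with an LTR and at 15 without. The share was 76.5% for LTRs within 100 bp, 76.2% beyond that up to 250 bp and 62.5% from there up to 500 bp. Among genes with 95% or more unique words the shares were 64.9% with and 74.7% without an LTR.

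An upstream LTR went with peaks that reached farther upstream. At 250 bp upstream of the middle 44.2% of the genes with an upstream LTR were under a peak, against 18.4% of the genes without an LTR. At 500 bp upstream it was 22.4% against 5.83%. On the downstream side the 2 sets were close, with 15.8% against 13.6% at 250 bp. The median length of the peak was 489.5 bp with an upstream LTR and 371 bp without one. The summit was nevertheless nearer to the tRNA gene than to any LTR at 95 of the 122 genes with an upstream LTR. Unique words had a median of 92.0% around genes with an upstream LTR and of 96.6% around genes without one, and their part in the longer peaks was not tested.

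The LTR families were also compared one by one. With a Ty1 LTR as the nearest, 87 of 115 genes were under a peak (75.7%) with a median fold of 2.46, and with a Ty2 LTR 7 of 9 with 2.26. Ty3 inserts right at the start of transcription, and its LTRs lay at a median of 16 bp from the gene. Of the 37 genes beside one 29 were under a peak (78.4%), with a median fold of 2.08, and 17 of the 29 reached 2-fold, against 74 of 87 for Ty1. Genes beside a Ty3 LTR had a median of 77.2% unique words, against 95.9% for Ty1. A Ty4 LTR was the nearest at 11 genes, of which 5 were under a peak (45.5%), with a median fold of 2.38. The Ty4 group thus had the lowest share and the Ty3 group the lowest median fold of the 4 families. A full-length Ty element within 500 bp was found at 35 genes, 27 of them under a peak (77.1%) with a median of 2.21, against 181 of 240 others (75.4%) with 2.45. LTRs themselves were under a peak at their middle base in 35.1% of the 262 within 1000 bp of a tRNA gene and in 38.5% of the 122 farther away.

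The 67 genes without a peak were not all far from one. The nearest peak was 16 to 30767 bp away, with a median of 2780 bp, and 15 of the genes were within 500 bp. The farthest were the serine gene YNCL0002C at 30767 bp, the glycine gene YNCD0001W at 19764 bp, the alanine gene YNCM0018C at 19540 bp, the glutamine gene YNCE0014W at 16062 bp and IMT4 at 13314 bp. All 5 belong to families with other copies under peaks. The GC content of the 300 bp around the gene had a median of 37.7% in genes under a peak and of 37.0% in genes without one. The exact B box GGTTCGANTCC, present in 0.0466% of tiles, was found in 82 genes, of which 60 were under a peak (73.2%), against 148 of the 193 others (76.7%). By the distance to the nearest coding gene, 73.6% of 125 genes within 250 bp and 80.6% of 62 genes beyond 500 bp were under a peak, and the difference was not tested.

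Of 10 other genes of RNA polymerase III 9 were under a peak, with folds higher than at most tRNA genes. Where the summits of these peaks lay was not examined, so the folds are those of the peaks and are not assigned to the genes. The fold was 12.33 at SCR1, the RNA of the signal recognition particle, 5.67 at RPR1, the RNA of RNase P, and 3.43 at the snoRNA gene SNR52. All 6 annotated 5S rRNA genes of the RDN5 group lay in peaks of 8.70 to 11.22, within the repeated ribosomal DNA. SNR6, the U6 snRNA gene, had no peak, and the nearest was 2725 bp away. Only TRN1 and SUF2 among the tRNA genes had a fold above that of RPR1, and at TRN1 the summit lay in SSA1.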

How the data were processed

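The measurements were single-end ChIP-seq reads of 2 IP and 2 input libraries, grouped by their titles. Per the labels, the authors aligned reads to sacCer3 with Bowtie2 and called peaks with MACS2. The deposited list pools all libraries, and its header belongs to another MACS table, so columns were read by position as narrow peaks. The authors' MACS run gave the fold, which is the ratio at the summit of IP fragments over the local background. The deposited −log10 p-value is from its Poisson test. The published command mixes IP and input libraries on both sides, and the treatment was taken to be the IP and the control the input.

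Coordinates were set against the R64 genome and annotation of RefSeq, which is the sequence of sacCer3. Introns came from annotated exons, anticodons from the anticodon stem-loop (equal to all 23 given in notes) and LTR neighbours from edges within 500 bp. IP fragments k and background b were recovered with fold = (k + 1)/(b + 1), and all 1594 peaks gave a whole number within 0.05. The recovery of fragments and the overlap of intervals were tested on simulated data, and the other steps were not. The depth of each library is not given by the list, so recovered fragments give the precision. The study reports the reads per library, with fewer in each IP than in each input library. Named genes were the 10 highest and 5 lowest folds, the 5 farthest from a peak, the methionine and tyrosine genes, 5 genes known singly, genes within 50 bp of another tRNA gene and the 16 glycine copies. YNCC0008W, SUF10, SUP56 and the genes sharing long peaks were added for comparison or as annotation. The members, lists and comparisons were chosen with earlier results of these data known. Scripts ran in Python 3.11.15 with SciPy 1.17.1, NumPy 2.4.6 and, for plots, matplotlib 3.10.9.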

Additional observations from a re-analysis of the deposited data

How the results depend on the processing

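The count of tRNA genes under a peak was 208, and 170 with peaks of 2-fold or more, 202 with the whole gene inside, 178 with the summit within 150 bp and 198 with peaks of 1200 bp or less, but 25 with peaks of 3-fold or more. The share of 75.6% was 69.8% among genes with 95% or more unique words around them, an alternative chosen after seeing the data, as was the limit of 1200 bp. For genes with an LTR the share of 74.4% became 59.3% at 2-fold or more, 60.5% by the summit and 64.9% by unique words, and for genes without an LTR 77.7% became 66.0% at 2-fold or more. For genes with an intron 80.0% became 13.3% at 3-fold or more. For genes without an intron 74.4% became 59.5% at 2-fold or more, 7.91% at 3-fold or more and 62.3% by the summit. The changes at a higher fold or by the summit follow from fewer peaks being counted, and the cause of those by unique words was not tested. The share of genes with an intron was above that of genes without one under every alternative in this section. Among genes with under 95% unique words, a set not among these alternatives, it was 82.2% with an intron against 82.7% without one. The share of genes with an LTR was below that of genes without one except with a limit of 250 bp, where it was 76.4% against 74.8%. The share of other genes fell to 10.1% by the middle base. The median fold stayed between 2.39 and 2.44, and the median summit position was -19.5 bp from the middle and 20.5 bp from the first base. No paired analysis was possible because the list pools the libraries, and for the same reason leaving out a replicate was not possible. A pooled list of weak peaks limits the single genes: a fold of 1.58 rests on 61 IP fragments, and no peak in the list does not mean that Zuo1 was absent.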

Other observations

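Peaks over tRNA genes seldom held a G-quadruplex motif, a DNA sequence with 4 runs of guanine that can fold into a stacked structure. Runs of 3 or more guanines with loops of 1 to 25 nt were found on either strand in 2 of the 202 peaks at tRNA genes (0.99%), against 128 of the 1341 other nuclear peaks (9.55%). The median lengths of these peaks were 414 and 434 bp. The other nuclear peaks had more long ones, with an upper quartile of 726 against 591.5 bp and a longest peak of 18162 against 3810 bp. The part of peak length in the motif counts was not tested. Only 1 of the 275 tRNA genes lies within 15 kb of a chromosome end, and it was under a peak.

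The share of tRNA genes under peaks was spread over all 16 chromosomes, from 63.6% on chromosome VIII (7 of 11) to 100% on chromosome I (4 of 4). By the first base of the anticodon it was 79.7% for G (59 of 74), 77.5% for T (62 of 80), 74.5% for C (38 of 51) and 70.6% for A (48 of 68). Terminator runs of thymine in the 30 bp after the gene went with little difference. The share was 79.2% of 48 genes with 5 or fewer in a row and 74.2% of 159 genes with 6 or 7. For the 68 genes with 8 or more it was 76.5%.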
